A study of Mus musculus with 5 samples.

Results

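Ribosome biogenesis and RNA polymerase I genes were followed on 5 one-colour microarrays of mouse sarcoma cells. The set is a list of 45 genes given by symbol, of 20016 genes with a named probe, and all 45 were found on the array. Each gene was read from its brightest probe, and 44 genes gave a signal well above background on every array. The cells were lines derived from soft tissue sarcomas that had formed in mice with doxycycline-inducible EWS/ATF1 alleles, and their strain was a mix of C57/BL6, 129 and ICR. EWS/ATF1 is a fusion of an RNA-binding protein with a CREB-family transcription factor and is known from clear cell sarcoma. The 5 groups had 1 array each, namely a control, a low and a high doxycycline dose at 3 h, and a control and a high dose at 48 h. All 5 groups carried the inducible alleles, but the labels state neither the doxycycline concentrations, nor how controls were treated, nor which line was on which array. A difference between arrays can therefore include a difference between lines.

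Ribosomes are assembled in the nucleolus. RNA polymerase I transcribes the precursor of ribosomal RNA, small nucleolar ribonucleoproteins (snoRNPs) guide its methylation and pseudouridylation, and a large set of helicases, scaffolds and GTPases folds and cuts it into the small and the large subunit. The demand for new ribosomes is known to follow growth and division, and many of these genes are textbook targets of the MYC family.

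The 75th percentile of signal lay between 420 and 725 over the arrays, and 55.5% to 60% of probes were well above background. Levels are given as the log2 signal relative to that percentile of the same array, so a level compares arrays for 1 probe and not genes with each other. With 1 array per group there is no replicate spread, and no p-value is given for a difference between 2 arrays. Technical error was taken from the scanner software and was 0.204 for a log2 difference of most of the 45 genes. For a probe with replicate spots the software's error was divided by the square root of their number, which takes the spot errors as independent. Replicate spots of the same probe gave a median SD of 0.0879 for the 48 h difference. Neither holds the variation between cultures. Fos, which the study's title names as activated by the fusion, was at -2.22 on both control arrays, at -0.49 at the low dose, and at 2.18 and 2.86 at the high dose of 3 h and 48 h.

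At 48 h of the high dose, ribosome biogenesis genes stood mostly above the 48 h control by less than 2-fold. The median log2 difference of 44 measured genes was 0.44, against 0.05 over 13739 measured genes of all kinds, and 36 of 44 lay above 0 where 53.3% of all genes did. At 2-fold, 5 of 44 genes were higher (11.4%) and 0 were lower. Over all genes 9.94% were higher and 10.1% lower by that rule, so the 2-fold count of the set is near the background. At 1.5-fold, 18 of 44 were higher and 0 lower, against 20.8% and 19.3% of all genes. The difference exceeded 2 scanner errors upward in 25 genes and downward in 1, namely Ddx10, against 27.9% and 25.3% of all genes. In bulk RNA a change in the number of cells of a type and a change in RNA per cell cannot be told apart.

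The 48 h high-dose array was the highest of the 5 for 34 of 44 genes, against 40.9% of all genes measured on every array. On the other 4 arrays the genes of the set had a median range of 0.23 against 0.34 for all genes. All genes were not matched to the set for signal level, and the set's median level was 1.76 to 2.29 over the 5 arrays. In 24 genes the 48 h high-dose level lay above the other 4 by more than their whole range, against 22.8% of all genes, and in 0 genes it lay below them by that much, against 18.4%. It was the lowest of the 5 for 4 genes (Utp20, Ddx10, Noc3l and Pes1), against 34.9%, although a second Pes1 probe was highest there. Set against the 3 h control, the same array gave a median of 0.45 with 38 of 44 above 0 (53% of all genes), and 4 genes were 2-fold higher (Rrp1b, Fbl, Nop58 and Nolc1) and 0 lower, against 9.44% and 8.85%. Set against the 3 h high dose, the median was 0.41 with 38 of 44 above 0 (55.1%), and 3 genes were 2-fold higher (Fbl, Nop58 and Nop56) and 0 lower, against 9.17% and 8.38%. These 3 comparisons share the 48 h high-dose array.

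**Figure D1:**
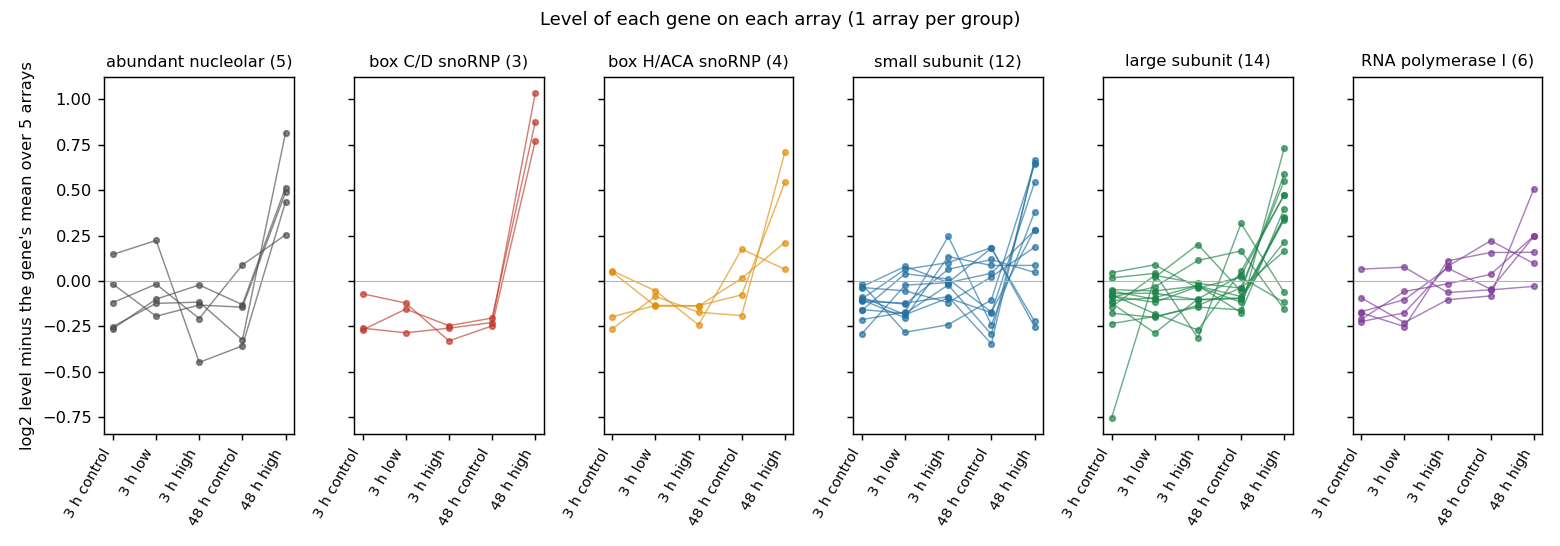
Each line is 1 gene, and each point its log2 level on 1 array minus the gene's mean over the 5 arrays, in panels by role with the number of genes. The 3 box C/D snoRNP genes lie together on the first 4 arrays and above them on the 48 h high-dose array.

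Core proteins of box C/D snoRNPs, which carry out 2'-O-methylation of ribosomal RNA, had the largest median difference of the role groups over the 3 genes listed. Fbl, which encodes the methyltransferase fibrillarin, was at 1.81 in the 3 h control, at 1.78 and 1.81 for the low and high dose of 3 h, at 1.84 in the 48 h control and at 3.1 at the 48 h high dose. The 48 h difference was 1.26 (scanner error 0.204), a 2.40-fold higher level, and the first 4 arrays lay within 0.06 of each other. Nop58, a scaffold of the same particle, was at 2.22, 2.34, 2.25, 2.29 and 3.37 in the same order, a 48 h difference of 1.08. Its partner scaffold Nop56 was at 3.57, 3.52, 3.31, 3.39 and 4.41, which gave 1.02 against the 48 h control and 0.84 against the 3 h control. A second Nop56 probe gave 1.12. The high-dose array of 48 h stood above every other array for all 3 genes. With the 75th percentile taken over probes above background on all arrays, or with quantile normalisation, Fbl stayed at 2-fold and Nop56 and Nop58 did not, while the median of the 3 genes was 0.99 and 0.94.

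By their brightest probes, the 5 genes of abundant nucleolar proteins were higher on the 48 h high-dose array, with unequal sizes and a median of 0.64. Nolc1 encodes a chaperone of snoRNPs, and its brightest probe was at 1.64, 1.77, 1.78, 1.57 and 2.71, a difference of 1.14 or 2.20-fold. The second Nolc1 probe differed by only 0.26. Ncl, encoding nucleolin, a major RNA-binding protein of the nucleolus, was at 4.47, 4.64, 4.71, 4.61 and 5.25, a difference of 0.64. Here a second, dimmer probe went the other way, at 0.12, 0.48, 0.16, 0.47 and -0.14, a difference of -0.61, and the mean of both probes differed by 0.016. No direction is therefore given for Ncl. Gnl3, which encodes the nucleolar GTPase nucleostemin, was at 0.63.

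Npm1, encoding the histone and ribosomal chaperone nucleophosmin, showed the smallest difference of these genes. It was at 6.44, 6.54, 6.35, 6.65 and 6.81, and the difference of 0.17 is below the scanner error. The other Npm1 probes gave between 0.31 and 0.42. With quantile normalisation the brightest Npm1 probe turned to -0.35. Its paralogue Npm3 was dim, at -3.10, -3.02, -3.70, -3.61 and -2.81. The Npm3 difference was 0.79 against the 48 h control and 0.29 against the 3 h control, and the 3 h high-dose and 48 h control arrays were the lowest of the 5.

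Box H/ACA snoRNPs convert uridine to pseudouridine, and their protein genes split. Nhp2, an RNA-binding subunit, was at 4.04, 4.22, 4.13, 4.12 and 5.02, which is 0.90 above the 48 h control and above each other array. Gar1 was at 0.62. Dkc1, the gene of the pseudouridine synthase dyskerin itself, differed by 0.20, which does not exceed its scanner error of 0.205. Nop10, the smallest subunit, was at 3.08, 2.97, 2.78, 3.20 and 3.09, a difference of -0.11 that leaves the 48 h high dose inside the range of the other arrays.

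**Figure D2:**
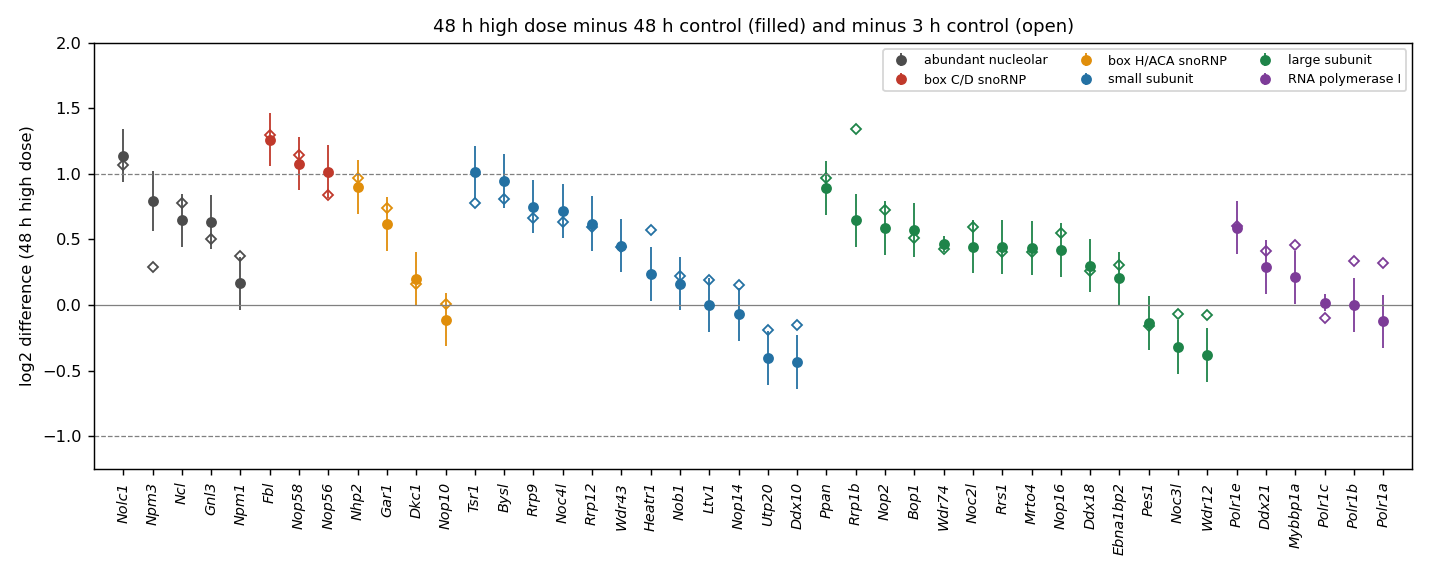
Filled points show the log2 difference between the 48 h high dose and the 48 h control for 44 genes, with the scanner error of that difference as bars, and open diamonds the difference from the 3 h control. Colours mark the role, dashed lines mark 2-fold. Fbl, Nop58, Nop56, Nolc1 and Tsr1 lie at or above the upper dashed line against the 48 h control.

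Factors of the small subunit ranged from a 2-fold higher level to values below the control. Of 12 measured genes, 9 lay above 0 and the median was 0.34 (8 and 0.18 with normexp on the median signal). Tsr1, encoding a GTPase-like factor of late pre-40S particles, was highest in this group, at 1.27, 1.26, 1.29, 1.03 and 2.04. Its difference was 1.01 against the 48 h control, where it was lowest, and 0.78 against the 3 h control, and a second probe gave 0.82. Bysl, encoding the pre-40S factor bystin, was at 0.95, Rrp9, a protein of the U3 snoRNP, at 0.75, Noc4l at 0.72 and Rrp12, a factor of pre-ribosome export, at 0.62. Wdr43 and Heatr1, of the early processome on the nascent transcript, were at 0.45 and 0.24, with a second Wdr43 probe at only 0.08. Nob1, the nuclease that makes the final 3' end of 18S ribosomal RNA, was at 0.16.

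Other genes of the small subunit did not share that direction. Ltv1, a late assembly and export factor, was at 0.00 and Nop14, of the processome, at -0.07. Utp20, a large scaffold protein, differed by -0.40. Ddx10, an RNA helicase, was lowest, at -0.70, -0.54, -0.50, -0.42 and -0.85, a difference of -0.44 from the 48 h control and of -0.15 from the 3 h control. The 48 h high-dose array was the lowest of the 5 for Utp20 and Ddx10. Utp18 was well above background on the 3 h high-dose and 48 h control arrays only, at -5.00 on both, and not well above background on the other 3. Its 48 h control level was 0.28 above the lowest signal well above background on the 48 h high-dose array, less than the scanner error of 0.750, so no direction is given for Utp18.

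Of 14 factors of the large subunit, 11 lay above 0 with a median of 0.44, and 0 reached 2-fold. Ppan, an early assembly factor, was at 2.38, 2.42, 2.47, 2.46 and 3.35, a difference of 0.89 with the other arrays within 0.09 of each other. Nop2, an RNA methyltransferase, was at 0.59. Bop1, a scaffold of the PeBoW complex, was at 0.57, while its partner Wdr12 was at -0.38. The other partner, Pes1, was at -0.14 on its brightest probe and at 0.17 on a second, so no direction is given for it. Wdr12 had the lowest value of the group, at 0.50, 0.52, 0.17, 0.80 and 0.42, inside the range of the other arrays.

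The other large subunit genes lay close together. Wdr74, read from a probe with replicate spots, was at 0.47 with a scanner error of 0.0645. Noc2l, Rrs1, Mrto4 and Nop16 were between 0.42 and 0.45, and the helicase gene Ddx18 was at 0.30. Ebna1bp2 was at 0.20 on its brightest probe and at 0.04 and -0.29 on the others, so no direction is given for it. Noc3l, which works with Noc2l in export of the large subunit precursor, was at -0.32. Rrp1b, a nucleolar protein also tied to chromatin, was at -1.68, -0.90, -0.72, -0.98 and -0.33. Its low 3 h control level set it apart, so that the 48 h high dose was at 0.65 against the 48 h control and at 1.34 against the 3 h control.

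Of the 4 RNA polymerase I subunit genes, 3 lay between -0.13 and 0.02 at 48 h. With the associated genes Mybbp1a and Ddx21, the role group of 6 genes had a median of 0.12 and 5 above 0. With the 75th percentile over probes above background on all arrays the median was 0.03 and 3 of 6 lay above 0, so no direction is given for the group. Polr1a, the largest subunit, was at 2.01, 2.06, 2.31, 2.45 and 2.33, a difference of -0.13 from the 48 h control and of 0.32 from the 3 h control. Polr1b, the second largest subunit, was at -0.54, -0.61, -0.25, -0.21 and -0.20, or 0.00 and 0.33. For both catalytic subunits the 3 h high-dose and both 48 h arrays lay close together and the other 3 h arrays lower. Polr1c, a subunit shared with RNA polymerase III and read from replicate spots, was at 2.91, 2.92, 2.78, 2.80 and 2.81, a difference of 0.02 (scanner error 0.0645).

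Polr1e, which encodes a subunit tied to initiation, had the largest difference of the subunit genes. It was at -0.21, -0.34, -0.22, -0.20 and 0.39, a difference of 0.59 on this probe and of 0.67 on a second. Mybbp1a, a nucleolar regulator bound to the polymerase, was at 3.32, 3.47, 3.51, 3.57 and 3.78, or 0.21. Ddx21, a helicase of ribosomal RNA transcription and processing, was at 0.71, 0.78, 0.95, 0.84 and 1.13 on its brightest probe, a difference of 0.29. The second Ddx21 probe was at 0.13, 0.45, 0.57, 0.21 and 1.49, a difference of 1.29, so the size for Ddx21 depends on the probe.

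**Figure D3:**
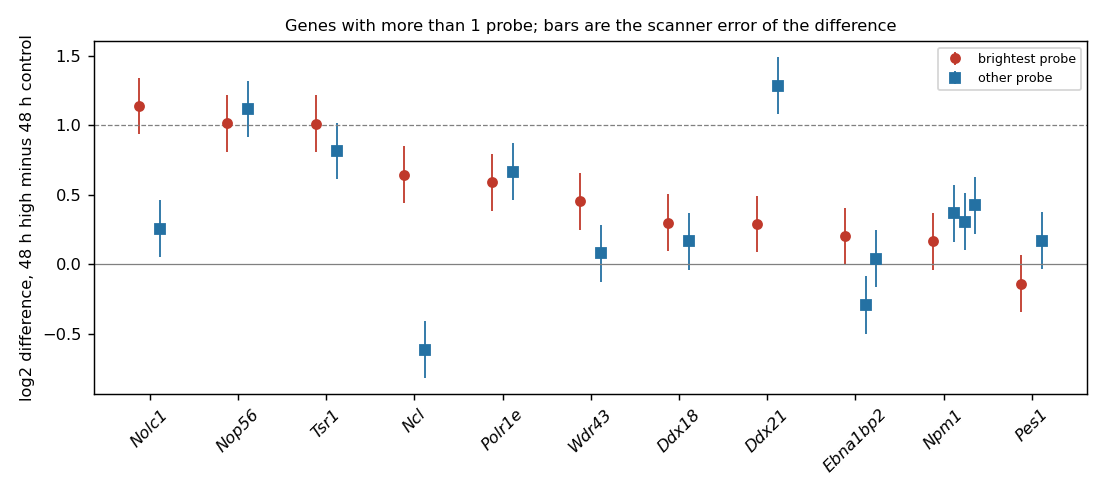
The log2 difference between the 48 h high dose and the 48 h control is shown for each probe of the 11 genes with more than 1 probe, with the scanner error as bars. Nop56, Tsr1, Polr1e, Ddx18 and Npm1 have probes within 0.26 of each other, while Ncl, Ddx21 and Nolc1 have probes 0.88 to 1.26 apart.

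At 3 h no gene of the set passed 2-fold at either dose. The median difference from the 3 h control was 0.03 at the high and 0.01 at the low dose, and 0 of 44 genes were higher or lower. Over all genes 1.85% were higher and 1.45% lower at the high dose, and 0.789% and 0.583% at the low dose. At 1.5-fold, 1 gene was higher (Rrp1b) and 1 lower (Npm3) at the high dose, against 5.86% and 5.18% of all genes, and 1 was higher (Rrp1b) and 0 lower at the low dose, against 3.48% and 2.44%. At the low dose 24 of 44 genes lay above 0 (53.2% of all genes), and at the high dose 28 of 44 (47.6%). These became 13 and 16 with arrays centred on their median, so no direction is given at 3 h. The direct difference between the doses had a median of 0.03, with 0 of 44 genes at 2-fold in each direction against 1.27% and 0.913% of all genes. Of these 44, 27 lay above 0 (43.1%), or 18 with median centring, and at 1.5-fold 0 were higher and 1 lower (Npm3), against 3.54% and 3.36%. Both 3 h doses share the 3 h control array.

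The difference of the 48 h control from the 3 h control had a median of 0.07 in the set, with 0 of 44 genes at 2-fold, against 2.5% higher and 1.36% lower over all genes. In that comparison 26 of 44 lay above 0 (51.2%), or 17 with arrays centred on their median, so no direction is given, and at 1.5-fold 1 was higher (Rrp1b) and 0 lower, against 6.93% and 4.22%. The 2 genes past 1.5-fold at 3 h also differed between the controls. Rrp1b was at 0.95 for the high dose, 0.77 for the low dose and 0.70 for the 48 h control, each against the 3 h control. Npm3 was at -0.59 for the high dose and at -0.50 for the 48 h control. Rrp12 was at 0.46 for the high dose and at -0.03 for the 48 h control. Box C/D genes lay between -0.26 and 0.02 at the high dose of 3 h.

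**Figure D4:**
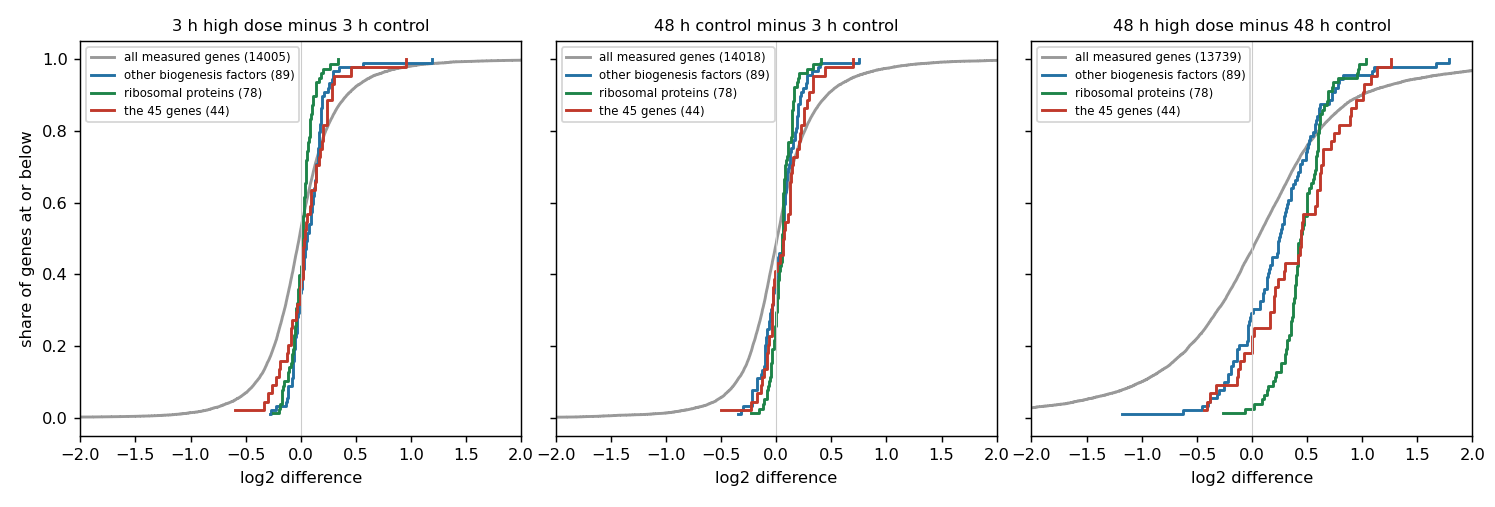
The curves show, for each log2 difference, the share of genes at or below it, for all measured genes, for other biogenesis factors of both subunits, for ribosomal protein genes and for the 45 genes, with the number measured. The sets lie mostly near 0 at 3 h and between the controls, and to the right of all genes over most of the 48 h panel. The axis ends at 2 in both directions.

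The design allows 1 fit, of time and high dose over 4 arrays with 1 residual degree of freedom, which treats any effect seen at just 1 of the times as error. With limma and Benjamini-Hochberg adjustment, 0 of 45 genes of the set were called at an adjusted p of 0.05, and the lowest adjusted p was 0.884, shared by 18 of them. The lowest unadjusted p was 0.0616, for Rrp1b. At an unadjusted p under 0.05 there were also 0 of 45. Over all 14601 genes 0% were called higher and 0% lower, and 1.96% and 1.51% were higher and lower at an unadjusted p under 0.05. The median effect of high dose over both times was 0.23 in the set.

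Other genes of the pathway were taken from lists outside the 45. Of 11 measured genes of RNA polymerase I and its factors, 9 lay above 0 and 0 reached 2-fold (median 0.44, but 0.20 with quantile normalisation or with the mean of all probes). Ubtf, which encodes the architectural factor of ribosomal RNA genes, was at 0.66 and Rrn3, which recruits the polymerase, at 0.62, while Tcof1, encoding the nucleolar protein treacle, was at -0.31. Against the 3 h control these were at 0.51, 0.74 and -0.54. Among 44 other small subunit factors 32 lay above 0, with a median of 0.21 (0.12 with the 75th percentile over probes above background on all arrays) and 0 at 2-fold in each direction. Tbl3 was highest at 0.83 and Utp25 lowest at -0.62.

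Among 45 other large subunit factors, 4 were 2-fold higher and 1 lower, around a median of 0.31 with 31 above 0, and with quantile normalisation 2 were 2-fold higher. Those shares are not above the 9.94% and 10.1% of all genes. The other 3 higher genes were Rrp8 at 1.67, Surf6 at 1.10 and Nifk at 1.09, named after their values were seen. At 3 h of the high dose Rrp8 was at 1.19 against the control, the 1 gene of this list at 2-fold. Over all genes 1.85% were higher there. Rrp1, the paralogue of Rrp1b, had the largest difference at 1.79, and its level was 5.64, 5.56, 5.56, 5.71 and 7.50. Mdn1, a very large ATPase that remodels the pre-60S particle, was lowest at -1.18, and at -0.43 against the 3 h control.

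Ribosomal protein genes had differences at 48 h whose sign depends on the scaling. Of 78 measured genes, 76 lay above 0 with a median of 0.44, and 1, Rps2, was 2-fold higher at 1.04, while Rpl5 was lowest at -0.26. With quantile normalisation the median turned to -0.07 and 25 of 78 lay above 0. Many of these genes have near-identical pseudogene copies that a probe could also detect. The set of 45 kept a median of 0.36 with quantile normalisation, with 32 of 44 above 0.

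Regulators and markers of growth on the same arrays are given beside these results, and their part in them was not tested. In the MYC network, Mycn was at -0.61, -0.47, 0.54, -0.90 and 2.75, a difference of 3.66 at 48 h and of 1.15 at 3 h of the high dose. Myc itself was at -0.32, -0.38, -0.53, -0.03 and -0.90, so it was lower by 0.87 on the log2 scale than in the 48 h control. The antagonist gene Mxd1 was at 3.76 above the 48 h control and Mga at -1.09. Proliferation markers were 2-fold higher in 9 of 9 measured genes at 48 h, against 9.94% of all genes. Their median was 5.10 (4.39 with normexp on the median signal) with Mki67 at 6.86. Aurkb was above background on the 48 h high-dose array only. At 3 h of the high dose the proliferation median was -0.19 with 0 of 9 at 2-fold, against 1.85% higher and 1.45% lower over all genes.

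Markers of cell types also moved with the 48 h high-dose array, and their part in the results was not tested. Of 9 macrophage markers on the array, 7, 8, 4, 4 and 8 were above background on the 5 arrays in the order used above. Their summed signal, in units of the 75th percentile, was 26.3, 27.9, 27.6, 33.3 and 58.8, with Ptprc not above background at 48 h of the high dose. Of 4 macrophage markers measured on both 48 h arrays, 3 lay above the control and 1 below. Their median was 0.98, from Itgam at -0.52 to Csf1r at 2.41. All 9 mesenchymal markers were above background on every array, with a summed signal of 100.3 to 113.5 on the first 4 arrays and of 53.5 on the fifth. At 3 h of the high dose, 7 of 9 mesenchymal markers were below the control, 2 of them by 2-fold, with a median of -0.59. At 48 h 9 of 9 mesenchymal markers were below, 7 by 2-fold, with a median of -2.01. Over all genes 1.45% were 2-fold lower at 3 h of the high dose and 10.1% at 48 h. Of 10 neural crest and melanocyte markers 7 or 8 were above background, and Dct and Foxd3 were not on any array. Their summed signal was 104.5 to 118.6 on the first 4 arrays and 155 at the 48 h high dose. Of 7 measured on both 48 h arrays, 3 lay above the control and 4 below, with a median of -0.21. The highest of these was S100b at 0.72. Ngfr, encoding a neurotrophin receptor, was lowest, by 6.45 on the log2 scale below the 48 h control. Of 6 epithelial markers, Cdh1 and Krt8 were not above background on any array. Krt5 and Krt14 were above it on every array, at 0.53 and -1.37 against the 48 h control. Epcam was above background only at the 3 h high dose, and Krt18 there and in the 48 h control. Of 6 endothelial markers, Cdh5 and Emcn were not above background on any array. Pecam1 and Kdr were above background on every array, at 0.28 and 0.69 against the 48 h control. Endothelial Tek and Vwf were above it on the first 4 arrays and not at the 48 h high dose, while the endothelial sum was 6.44 in the 48 h control and 10.2 there. The labels call the samples tumour cells, a name with no marker that defines it.

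Promoters of the set were searched for the letters that CREB-family factors and MYC are known to bind, since the fusion contains the DNA-binding part of ATF1. RefSeq sequences of GRCm38.p6, taken 250 bases upstream of each annotated start, were given for 40 of the 45 genes. The cAMP response element TGACGTCA was found on either strand in 2 of 40, Ppan and Noc4l, against 1.77% of 27025 genes in the table and 2.95% of those measured on both 48 h arrays. Its core TGACG, which every TGACGTCA also contains, was found in 16 of 40 (40.0%), against 19.8% and 29.2%. The E-box CACGTG was found in 2 of 40, Nop2 and Utp18, against 6.86% and 9.61%. Of 81 other factors of the pathway outside the set, 3.70% held the full element, 45.7% the core and 12.3% the E-box. The share with the core was thus not higher in the set than in the rest of the pathway. Promoters with the core letters also hold a CG, and the median number of CG pairs was 16.5 in the set, 6 in all genes and 16 in the measured genes.

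Stretches next to the start are shown for Ppan, Noc4l, Nolc1 and Nop2 because they carry these letters, in capitals. These genes also had a higher 48 h level at the high dose by their brightest probe. The choice thus used that difference, and the second Nolc1 probe differed by only 0.26. Genes with the core letters and little or no rise are not shown, such as Polr1c (0.02), Nop14 (-0.07) and Ddx10 (-0.44). Each stretch reads 5' to 3' toward the start, which follows its last base. It runs for at most 120 bases, or less where another annotated gene begins.
Ppan, chr9:20888055-20888174, plus strand: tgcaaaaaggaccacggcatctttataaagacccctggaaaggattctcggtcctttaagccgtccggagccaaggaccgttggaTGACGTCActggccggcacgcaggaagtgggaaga
Noc4l, chr5:110653383-110653431, minus strand: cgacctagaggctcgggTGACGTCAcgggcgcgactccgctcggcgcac
Nolc1, chr19:46075727-46075846, plus strand: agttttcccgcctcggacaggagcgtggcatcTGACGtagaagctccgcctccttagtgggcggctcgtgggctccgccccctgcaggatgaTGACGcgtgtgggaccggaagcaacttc
Nop2, chr6:125131763-125131882, plus strand: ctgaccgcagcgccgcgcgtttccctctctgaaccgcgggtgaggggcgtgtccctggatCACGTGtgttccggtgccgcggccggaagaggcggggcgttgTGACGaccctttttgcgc

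In Ppan and Noc4l the full element begins 35 and 32 bases before the start. Their 48 h differences were 0.89 and 0.72, and at 3 h of the high dose they were at 0.09 and -0.0046. Over the 39 genes with a promoter and a 48 h value, the median difference was 0.59 for 15 genes with the core letters and 0.27 for 24 without. The ranges were -0.44 to 1.14 and -0.40 to 1.02. Genes with probes that disagreed in direction are among them, namely Ncl with the letters and Pes1 and Ebna1bp2 without. All these values come from the same pair of arrays, and the difference between the medians was not tested. By their brightest probes Nolc1, which has the letters, and Nop56, which does not, both reached 2-fold, though the second Nolc1 probe was at 0.26. A match of letters is no evidence of binding, and no match says only that these letters are not in this window.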

How the data were processed

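Total RNA was labelled with Cy3 and hybridised to 1 one-colour array per group, per the labels' protocols. Spots were read with Agilent Feature Extraction 10.7.3.1, a name the submitters' processing notes give. The authors deposited spot intensities on a linear scale, already background-subtracted and detrended within each array, per the file headers, and not scaled between arrays. The deposited value table matched these intensities within 0.001 (log2) for 100% of probes. The medians of that table were 38.6, 32.7, 32.2, 38.1 and 24.1, from the 3 h control to the 48 h high dose, so it is linear and not centred. All 5 arrays have the same slide barcode, so slide does not separate the groups.

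Control spots and spots flagged as outliers (111 to 146 of 59305 per array) were left out, and 0 spots were saturated. Signals were taken to log2, the array's 75th percentile was subtracted, and spots of a probe were averaged. Gene names came from the RefSeq table of GRCm38.p6, through the accessions of the probes with versions dropped. Of 55681 probes, 26408 received 1 symbol, 0 several and 29273 none. The brightest probe by mean level stood for its gene, and 11 of the 45 genes had more than 1 probe. Being above background meant that a share of 0.5 or more of a probe's spots had that mark, and a gene was called at 2-fold where both arrays were above background. The fit used limma 3.58.1 in R 4.3.3 with an intensity trend, and took genes with signal above background on 2 or more of its 4 arrays.

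The 45 genes, their role groups and the other lists were chosen with earlier results of these data known. Full values are given for the polymerase genes, for Ncl, Npm1, Npm3 and Fbl, for the genes with the largest and smallest 48 h difference of each other role group, and for genes below background or with probes over 1 apart (log2). Genes given in full beyond that rule (Nop58, Rrp1b and the second Ddx21 probe) were chosen after their values were seen. Alternatives changed the scaling, the background correction, the filter on dim probes, the probe per gene, the source of values, the fold and the control array.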

Additional observations from a re-analysis of the deposited data

Results flagged for a closer look

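Npm3 is given because the high dose went opposite ways at the 2 times, by more than 2 scanner errors at each. It was at -0.59 against the control at 3 h and at 0.79 at 48 h, and the difference between these was not tested. The Npm3 probe was dim on every array, and the 48 h control lay 0.50 below the 3 h control on the log2 scale. No group had enough arrays to look for an array apart from its own group.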

How the results depend on the processing

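No paired analysis was possible because each group has 1 array and the labels give no replicate numbers. Of 137 values recomputed for the set as a whole, 125 stayed within 1.5 times a count or within the spread of replicate spots for a median. The count of 5 genes 2-fold higher at 48 h became 2 (Fbl and Nolc1) with the 75th percentile over probes above background on all arrays and 2 (the same genes) with quantile normalisation. It became 3 with normexp on the median signal (Fbl, Nolc1 and Nop58), 3 with the mean of all probes (Fbl, Nop56 and Nop58) and 18 at 1.5-fold. At 1.5-fold, 1 gene was higher and 1 lower at 3 h of the high dose, 1 was higher at the low dose, 1 was lower when the 3 h doses were compared, and 1 was higher when the controls were. With arrays centred on their median, the set's median turned to -0.082 at 3 h of the high dose and to -0.054 between the controls. That scaling moved the median of all genes by -0.12 in both comparisons. Higher genes as a share of all 2-fold calls went from 56.1% to 40.7%, from 57.5% to 46.8% and from 64.8% to 50.1% for the high dose and the low dose at 3 h and for the controls. Leaving out the filter on dim probes moved the median of all genes by 0.14 at 48 h. Of 352 values recomputed for single genes at 48 h, 28 moved by more than their scanner error and none of the 5 genes at 2-fold turned sign. The moves were uneven, with 14 of 44 genes when the 3 h control replaced the 48 h control and 7 of 44 with quantile normalisation. Each other setting moved 0 to 4 of 44. Of those 28, Npm1 (-0.35) and Ebna1bp2 (-0.017) turned with quantile normalisation, Ebna1bp2 also with the mean of all probes (-0.017), Polr1c (-0.065) with the 75th percentile over probes above background on all arrays, and Polr1a (0.32) and Nop14 (0.15) against the 3 h control. Normexp was run on the median spot signal, a choice made after seeing the data, and not on the mean signal, which was not used here. Signal over background limits Utp18 and Npm3.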

Other observations

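The RNA exosome and the RNase P and MRP proteins, which trim and cut ribosomal RNA precursors, were mostly above the 48 h control. Of 20 measured genes, 19 lay above 0 with a median of 0.42, and 1 was 2-fold higher, where 9.94% of all genes were. This was Dis3, encoding a catalytic exosome nuclease, at 1.37 and at 1.14 against the 3 h control, while Exosc7 was lowest at -0.41. RNA polymerase III and its factors, which make 5S ribosomal RNA and transfer RNA, had no common direction. Of 20 measured genes 11 lay above 0, with a median of 0.01 and 0 at 2-fold in each direction, from Bdp1 at -0.68 to Gtf3c4 at 0.70.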
